A study of Mus musculus with 800 samples.

Results

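Apical vomeronasal neurons were split by how many counts their leading V1R gene had: 79 neurons with a high V1R (at least 200 counts) were set against 66 with a low V1R (under 100 counts). The V1R count that sets the sides is therefore no finding. Apical neurons were single-cell chambers with at least 30 counts of Gnai2, fewer than 20 of Gnao1, at least 40 of Omp, fewer than 10 of Sox2 and a total of at least 100000 counts, and 61.4% of the single-cell chambers met this; single-cell chambers were 49.25% of the 800 chambers in all. The leading, or top, V1R is the Vmn1r gene with the highest count in a cell. The 97 apical neurons in between, with at least 100 but under 200 counts, were held out of both sides and are given as a middle group, so the sides hold 59.9% of the apical neurons. At the lower limit the 5 highest low neurons all had 98 counts and the lowest middle neuron had 100. At the upper limit the highest middle neuron lay 1 count under 200 and the 2 lowest high neurons 2 counts above it, so the sides are ranges of a continuous measure.

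All 3 groups came from the same mice and the same chip. The mice were males of strain B6;129P2-Omptm3Mom/MomJ with the genotype OMP(GFP/wt), aged 66 days, and their vomeronasal organs were pooled as 3 and 4 animals (7 in all). Cells were sorted for GFP and Hoechst and against DRAQ7, a dye that enters dead cells, and loaded on a C1 high-throughput chip for 3′ end libraries with identifiers of 5 bases. GFP is made from the Omp locus, so the sort favours neurons old enough to transcribe Omp, and every cell carries the reporter allele. The labels do not tie chambers to a pool or a mouse, so each side is 1 unit, neurons of a side are not replicates, and no p-value is given. Intervals in square brackets are 95% intervals that cover counting error only.

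V1R genes encode G protein-coupled receptors for small pheromones. Neurons of the apical layer of the vomeronasal epithelium use them together with the G protein subunit Gαi2, encoded by Gnai2, whereas basal neurons use V2R receptors with Gαo, encoded by Gnao1. A neuron is thought to settle on a single receptor gene out of the many that lie in clusters along a few chromosomes, and to keep it. Omp, olfactory marker protein, marks mature sensory neurons.

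Many V1R genes are near-identical copies, and the ends of some of them are shown first because genes with much shared sequence led more low than high neurons. Below are the last 90 coding bases, with the stop codon, from GENCODE vM21 transcripts on GRCm38, written on the strand of the gene, with capitals where a base differs from Vmn1r131. The first sequence is that of Vmn1r131 (chr7:21545170-21545259, minus strand), and it is the same, base for base, in Vmn1r138 (chr7:22027977-22028066, minus strand), Vmn1r100 (chr7:20418776-20418865, plus strand) and Vmn1r148 (chr7:22414417-22414506, plus strand). The other 3 genes all lie on the minus strand: Vmn1r142 at chr7:22163118-22163207, Vmn1r127 at chr7:21318944-21319033 and Vmn1r117 at chr7:20883198-20883287.
Vmn1r131: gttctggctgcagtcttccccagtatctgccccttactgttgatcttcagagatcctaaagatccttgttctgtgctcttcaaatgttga
Vmn1r142: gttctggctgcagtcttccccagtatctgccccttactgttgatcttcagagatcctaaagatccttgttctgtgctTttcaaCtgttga
Vmn1r127: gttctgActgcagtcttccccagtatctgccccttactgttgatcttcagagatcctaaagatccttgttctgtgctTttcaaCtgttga
Vmn1r117: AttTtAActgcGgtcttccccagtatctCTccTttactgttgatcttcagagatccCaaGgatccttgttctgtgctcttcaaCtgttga

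Against Vmn1r131, Vmn1r142 differed at 2 of these 90 bases, Vmn1r127 at 3 and Vmn1r117 at 11. In all, 14 V1R genes carry the Vmn1r131 ending, and in all 14 the GENCODE model stops at the stop codon with no base after it. Neurons led by genes with this ending lay on each side: Vmn1r131 led 2 low, Vmn1r166 1 low, Vmn1r148 2 middle and Vmn1r100 1 high neuron. Over the whole coding sequence Vmn1r131 and Vmn1r138 have the same 921 bases, and Vmn1r100 and Vmn1r148 the same 924.

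Gene models that end at the stop codon were unequally spread over the sides. A 3′ end library reads the end of a transcript, and 52 of the V1R models (26.4%) have no annotated base after the stop codon. The top V1R was such a gene in 18 of 66 low neurons (27.3% [17.0–39.6]), in 5 of 97 middle neurons (5.15% [1.69–11.6]) and in 2 of 79 high neurons (2.53% [0.308–8.85]). The 25 neurons led by these models had top counts from 17 to 434, and those led by a model that runs on had 2 to 492. Per 100000 counts of the cell, the medians were 39.8 and 105.1. Which annotation the submitters counted on is not given in the sources used here, and the part of the gene model in the V1R level was not tested.

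**Figure D1:**
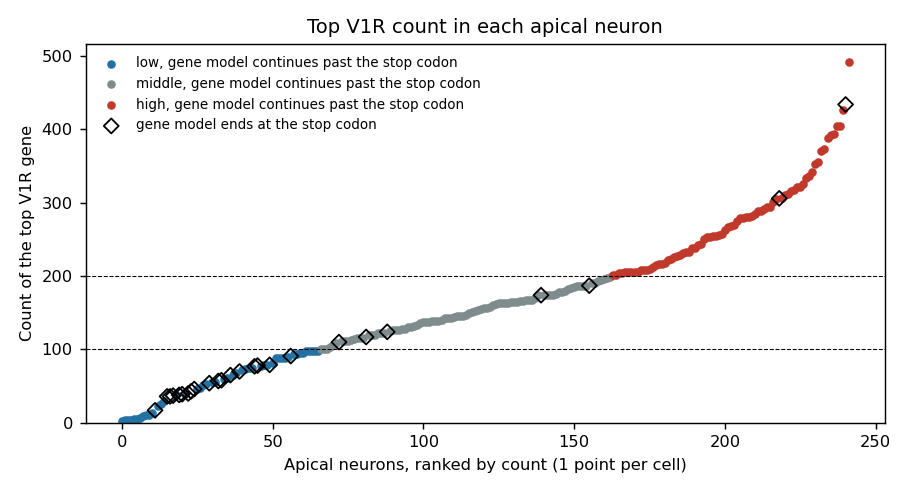
Count of the top V1R gene (vertical axis, linear) in each apical neuron, ranked from lowest to highest (horizontal axis), coloured as low, middle or high, with dashed lines at 100 and 200 counts. Open diamonds are the 25 neurons whose top V1R model ends at the stop codon, and 18 of them are on the low side.

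The same contrast held inside a single stretch of the genome. An array of 64 V1R genes on chromosome 7 (chr7:20099680-24063554), which holds 48 of the 52 models that end at the stop codon, led 28 apical neurons. Of the 20 led there by a model that ends at the stop codon, 14 were low, 5 middle and 1 high, with a median top V1R of 40.2 per 100000 counts. Of the 8 led there by a model that runs on, 1 was low, 1 middle and 6 high, with a median of 153.6. The leading genes of the first kind had 42.3% to 100% of their 50-base words in another receptor, those of the second 1.92% to 47.6%. The model end and shared sequence thus cannot be told apart here. Over all apical neurons the top V1R shared at least 50% of its words in 19.7% of low, 5.15% of middle and 1.27% of high neurons.

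In the pairs looked at, copies with the same coding sequence were given near-equal counts in the same cell. This was not so for every gene with the same ending. In the low neuron led by Vmn1r166, with 78 counts, no other gene with the Vmn1r131 ending reached 20. In the 2 low neurons led by Vmn1r131, Vmn1r131 and Vmn1r138 had 37 and 37 counts in one and 54 and 54 in the other. In the high neuron led by Vmn1r100, Vmn1r100 had 434 counts and Vmn1r148 433, and its V1R genes together had 1966, the most of any high neuron. In the low neuron led by Vmn1r142, Vmn1r142 had 43 counts and Vmn1r127 41, although their 918 coding bases differ at 9. In the middle neuron led by Vmn1r142 the pair was unequal, at 61.1 and 15.8 per 100000 counts. A second V1R with at least 80% of the top count was present in 13 low (19.7% [10.9–31.3]), 8 middle (8.25% [3.63–15.6]) and 3 high neurons (3.797% [0.790–10.7]). It shared sequence with the top V1R in 4 of the 13 low, 6 of the 8 middle and 1 of the 3 high neurons. A low top count is easier to come near, so these shares are a description. The naming of the deposited table mentions fractional counting of reads with several matches, but every value in it is a whole number.

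The V1R genes that led the neurons of each side are given as a description. In all, 94 V1R genes were top in an apical neuron, 47 of them in a high and 47 in a low neuron, with 16 in both. Only 37 of the 94 led at least 3 neurons. A gene that led a single neuron cannot be in both, so the overlap is limited in advance and was not tested. Vmn1r51 (chr6:90122596-90132264) led the most high neurons, and in its 7 neurons it had, per 100000 counts of the cell, 4.24 in the low one and 136.6, 141.4, 196.2, 222.8, 265.5 and 269.4 in the 6 high ones. Vmn1r85 (chr7:13083313-13095173) had 70.7 in a low and 129.7 in a middle neuron, and 135.04, 178.1, 229.1, 250.4 and 314.8 in 5 high ones. Vmn1r218 (chr13:23133155-23146112), Vmn1r236 (chr17:21282942-21294007) and Vmn1r28 (chr6:58262037-58275639) each led 4 high neurons. On the same scale Vmn1r236 had 156.8, 166.6, 169.9 and 194.5 in its high neurons, 93.9 in a middle and 7.55 in a low one. Vmn1r28 had 121.7, 140.1, 151.6 and 214.3 in its high neurons and 25.2 in its low one. The low neurons of Vmn1r51, Vmn1r236 and Vmn1r28 had 6, 9 and 30 raw counts. The top V1R of empty chambers had a median of 32, so these genes are not read as the receptors of those low neurons. In each of these genes the high neurons lay apart from the low ones. The limits require this of raw counts, and also of scaled ones where the low neuron had few counts, so it is no finding. Over all genes the scaled ranges overlapped slightly: high neurons started at 86.6 and low neurons reached 91.2 per 100000 counts.

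The genes that led the most low neurons were mostly others, with Vmn1r218 among both. Vmn1r64 (chr7:5883580-5884542), whose model ends at the stop codon, was top in 4 neurons with 36, 58, 77 and 79 counts, all low. Vmn1r93 (chr7:20138123-20139088), another such model, had 57, 70 and 91 counts in 3 low neurons and 110 in a middle one. Vmn1r27 (chr6:58213091-58218821) had 52, 75 and 88 counts and Vmn1r86 (chr7:13097531-13119917) 79, 94 and 98, and no neuron of either gene was middle or high, although both models run on past the stop codon. The fifth place was shared by 10 genes that led 2 low neurons each: Vmn1r4, Vmn1r38, Vmn1r39, Vmn1r47, Vmn1r117, Vmn1r129, Vmn1r131, Vmn1r218, Vmn1r231 and Vmn1r237. Of these, Vmn1r117, Vmn1r129 and Vmn1r131 have models that end at the stop codon. The low neurons of Vmn1r4 had 4 and 5 counts and those of Vmn1r47 had 4 and 25. These lie under the median top V1R of 32 counts in empty chambers, so neither gene is read as the receptor of these neurons.

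Of the 37 V1R genes that led at least 3 apical neurons, 15 had no high neuron, 11 had no low neuron, and 4 counted in both had middle neurons only. A further 15 had both high and low neurons, but in only 7 of those did a low neuron reach 20 counts, the level from which a gene is called detected here because counts above 0 have a trough at 18 and a second mode at 39. Vmn1r4 is an example of the rest: per 100000 counts its 4 neurons had 2.48, 4.61, 109.1 and 187.6. Vmn1r35 (chr6:66678070-66685906), named after its values were seen, led the most neurons of all and stayed close together, with 8 neurons from 63.02 to 110.4 per 100000 counts, 7 of them middle.

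**Figure D2:**
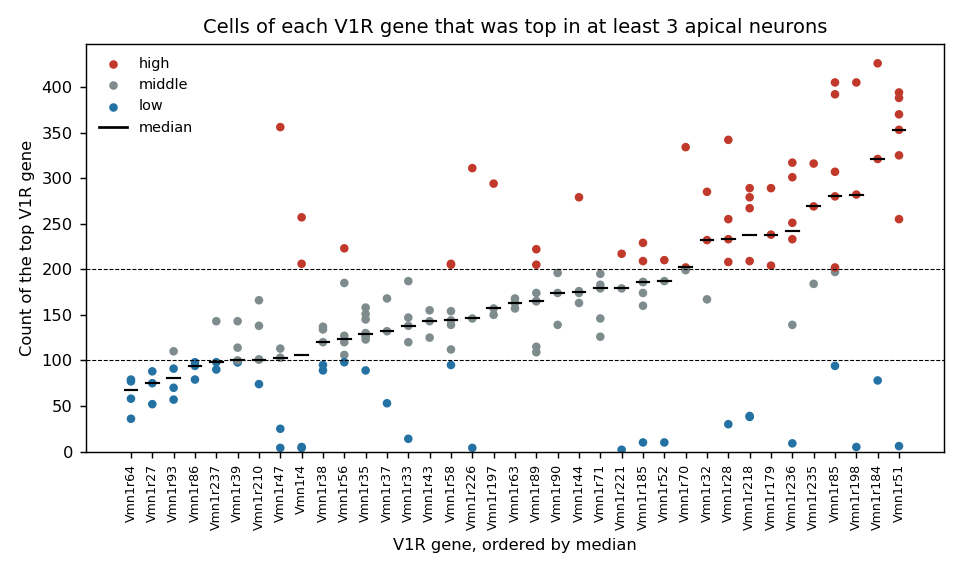
Count of the top V1R (vertical axis, linear) in each neuron of the 37 V1R genes that were top in at least 3 apical neurons, ordered by median (black line), with points coloured by side and dashed lines at 100 and 200 counts. Genes at the left have low and middle neurons only, whereas all 10 genes with the highest medians have a high neuron; 3 of those 10 have a single neuron under 20 counts and 3 have no low neuron.

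Sides by position are given next, with V1R genes within 1 Mb of a neighbour taken as a cluster. The cluster of 14 genes at chr6:89707540-90224438, which holds Vmn1r51, led 10 high, 9 middle and 1 low neuron with at least 20 counts. The cluster of 21 genes at chr7:10272991-13220657 led 15 high, 16 middle and 4 low neurons, and that of 33 genes at chr13:22084440-23253906 led 18, 11 and 8. The chromosome 7 array above led 7 high, 6 middle and 14 low neurons with at least 20 counts, and the cluster of 8 genes at chr6:66552180-66810609, which holds Vmn1r35, led 2, 21 and 6. Neurons of a cluster share gene models and sequence, so these counts are a description.

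**Figure D3:**
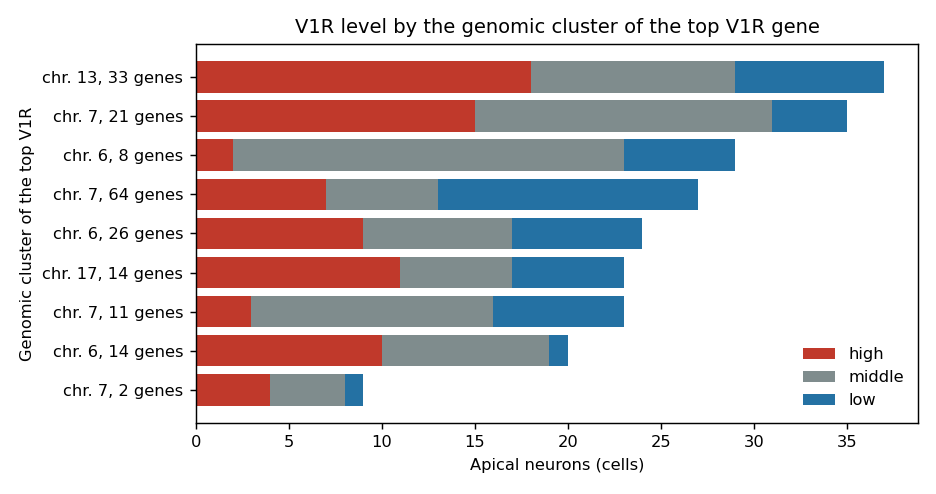
Number of apical neurons (horizontal axis, stacked by side) whose top V1R had at least 20 counts, for the 9 genomic clusters that led at least 9 such neurons, named by chromosome and number of V1R genes. The chromosome 7 cluster of 64 genes has the most low neurons, 14, and the chromosome 6 cluster of 14 genes has 1.

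A subset of the low side had next to no receptor counts of any kind. In 12 of 66 low neurons (18.2% [9.76–29.6]) the top V1R had under 20 counts, with values of 2, 4, 4, 4, 5, 5, 6, 9, 10, 10, 14 and 17. None of the 12 had another receptor at 40 counts, and 9 had none at 20. Their totals, from 108383 to 189243 counts, lay within those of the high side, and per 100000 counts Omp ran from 49.3 to 98.2 and Gnai2 from 53.4 to 90.4. Gap43, which growing axons of immature neurons carry at their tips, had at least 39 counts in 3 of the 12 and at most 6 in the rest. The empty chambers (40.6% of all chambers) give the background: their top V1R had a median of 32 counts (quartiles 16 and 61) at a median total of 20731, and 15 low neurons were at or under that median.

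Receptors outside the V1R genes, with family C V2R genes left out, exceeded the top V1R in 13 of 66 low neurons (19.7% [10.9–31.3]) and in 0 of 79 high and 0 of 97 middle neurons, which allows shares of up to 4.56% and 3.73%. Since a low top V1R defines the low side, it is easier to exceed there, and no test was made. In empty chambers the highest of these other receptors had a median of 20 counts and reached 445. In most of the 13 neurons the top V1R itself was under 20 counts, so there both values lie in the range of empty chambers. The pseudogene Vmn1r-ps144 did so in 2 neurons, with 98.5 against 39.2 of Vmn1r169 and 98.1 against 32.99 of Vmn1r218, per 100000 counts. The V2R genes Vmn2r20 and Vmn2r40 did so in 2 neurons each, with 17 and 3 counts and with 14 and 8, so both stayed below 20 counts. The highest V2R counts outside family C, named after they were seen, were 81 of Vmn2r89 against 65 of Vmn1r159 and 69 of Vmn2r82 against 46 of Vmn1r16. A family C gene exceeded the top V1R in 3 low and in 0 high or middle neurons. In one of the 3 another receptor did so too, and in the other two it had 96 counts against 74 of Vmn1r210 and 68 against 60 of Vmn1r206. With family C counted, 15 low neurons (22.7% [13.3–34.7]) had a receptor above their top V1R. Among low neurons with a top V1R under 50 counts the share was 40.7%.

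Further V1R genes were more often seen beside a high top V1R. A second V1R that shares no sequence with the top one had at least 20 counts in 65.8% [54.3–76.1] of high, 56.7% [46.3–66.7] of middle and 33.3% [22.2–46.01] of low neurons, and its median count was 34, 25 and 13. With every neuron thinned to 100000 counts and a limit of 10, the shares were 73.4%, 62.9% and 45.5%. In empty chambers the top V1R alone reached 20 counts in 68.9% [63.6–73.9], so a second V1R at this level is not read as expressed. The top V1R made up a median of 73.8% of all V1R counts in high, 58.9% in middle and 43.9% in low neurons, an order that the choice of sides by the top V1R sets in part. All V1R genes together reached 200 counts in 14 low neurons and 100 counts in 43.

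Depth and the state of the cells differed little. Totals had medians of 161773 counts in high (101570 to 245826), 152306 in middle and 144565 in low neurons (107443 to 260930). Genes with at least 20 counts had medians of 2952, 2930 and 2728.5, and mitochondrially encoded genes took 1.22%, 1.12% and 1.15% of counts. Over all apical neurons the top V1R count and the total had a Spearman rho of 0.233, given as a description because every V1R count is part of its cell's total. In the chamber titles, numbers 1 to 10 held 46.8% of high, 58.8% of middle and 57.6% of low neurons.

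The markers of the cell choice had near-equal levels on both sides, above minimum counts that the choice itself set for every neuron. Per 100000 counts, Gnai2 had a median of 74.4 in high (42.5 to 129.9), 69.1 in middle and 71.2 in low neurons (39.4 to 117.6), and Omp had 61.5 (26.5 to 119.03), 57.4 and 61.7 (27.6 to 109.4). Summed Gnai2 was 1.06-fold in high over low neurons [0.867–1.28] and summed Omp 0.981-fold [0.793–1.21]. Gap43 had at least 20 counts in 30.4% of high, 34.02% of middle and 24.2% of low neurons, and Fos, an immediate-early gene of active neurons, in 45.6%, 53.6% and 37.9%. The intervals of these shares overlapped throughout, in the plot of shares below as in the values.

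Outside the receptor families, genes seen in most neurons were nearly equal on both sides. Counts were summed over the neurons of a side and scaled to the summed total, and 9409 genes had at least 3 counts in at least 10% of the neurons. The size rule took a gene if the sums were at least 1.5-fold apart, and at least 25% apart the same way both in title numbers 1 to 10 and in 11 to 20. It took 582 genes as higher in high neurons (6.19% of those tested) and 556 as higher in low neurons (5.91%), together 12.1%. The share fell with how widely a gene was seen: 21.3% of the 2208 genes with at least 20 counts in under 10% of neurons, 17.0% of the 3339 from 10% to 25%, 4.60% of the 2065 from 25% to 50%, 0.415% of the 965 from 50% to 75%, and 0 of the 832 genes above that. The spread shrank alike: 90% of the genes in the widest-seen class had a log2 difference between -0.19 and 0.18. With a minimum of 10 counts in 25% of neurons, 94 genes of 4674 were higher in high neurons (2.01%) and 100 in low neurons (2.14%), together 4.15%.

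**Figure D4:**
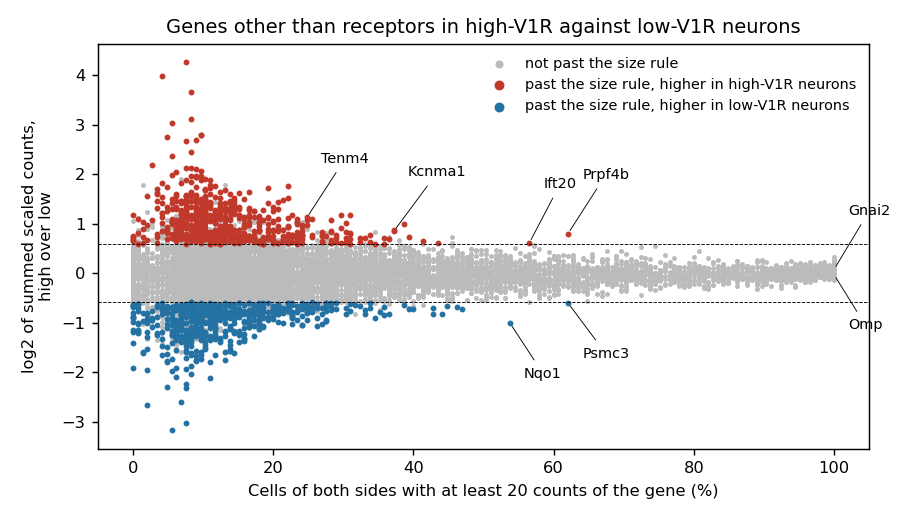
log2 of the summed scaled counts in high over low neurons (vertical axis) against the share of neurons of both sides with at least 20 counts (horizontal axis) for the 9409 genes compared, with dashed lines at 1.5-fold. Coloured points passed the size rule, and 4 of them (Ift20, Prpf4b, Nqo1 and Psmc3) were seen in 50% to 75% of neurons, with none above 75%.

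Nqo1, which encodes a quinone reductase against oxidative damage and is known to vary between zones of the olfactory system, was higher in low neurons. Per 100000 counts it ran from 0 to 79.7 with a median of 8.01 in high, from 0 to 95.9 with a median of 11.04 in middle and from 0 to 116.03 with a median of 32.3 in low neurons. The ranges thus overlapped almost throughout while the medians lay apart. Its sum was 2235 counts in high [2143–2330] and 3293 in low neurons [3182–3407], or 2.01-fold higher in low neurons once scaled [1.42–2.87]. Here and below the interval of a fold is taken on counts divided by 39, the second mode, because single counts are not spread as separate molecules, so the Poisson intervals of the sums are too narrow. At least 20 counts were seen in 45.6% [34.3–57.2] of high, 49.5% of middle and 63.6% [50.9–75.1] of low neurons, and in 10.8% of empty chambers. By cluster of the top V1R the share with Nqo1 ran from 37.9% (11 of 29 neurons, chr6:66552180-66810609) to 69.6% (16 of 23, chr7:5129291-6011010) among clusters of at least 20 neurons.

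Kcnma1, the large-conductance calcium-activated potassium channel that shapes vomeronasal responses, was higher in high neurons. It had 0 to 96 counts with a median of 9 in high and 0 to 74 with a median of 1 in low neurons, and sums of 2067 [1979–2158] and 838 [782–897], a 1.81-fold scaled difference [1.096–3.23]. It reached 20 counts in 46.8% of high, 24.7% of middle, 25.8% of low neurons and 7.08% of empty chambers. The middle group thus stood with the low one, and after thinning the shares at 10 counts were 48.1%, 28.9% and 31.8%. With the low side limited to the 12 neurons under 20 counts, the log2 difference of Kcnma1 was 2.12 in place of 0.85.

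Tenm4, a teneurin that guides cell contacts, was 2.18-fold higher in high neurons [1.12–4.38], with 0 to 97 counts (median 2) against 0 to 68 (median 0). It reached 20 counts in 32.9% of high, 27.8% of middle and 15.2% of low neurons and in 9.54% of empty chambers. Its share differed between V1R clusters. Of neurons led from chr6:56924015-58475330, 13 of 24 had it (54.2% [32.8–74.4]), and from chr13:22084440-23253906 17 of 37 (45.9% [29.5–63.1]). The share was lower in the chromosome 7 array, at 2 of 27 (7.41% [0.910–24.3]), and 0 of the 12 neurons with a top V1R under 20 had it. Low shares were also found in some clusters with more high than low neurons. These were 2 of 20 from chr6:89707540-90224438 (10 high, 1 low) and 6 of 35 from chr7:10272991-13220657 (15 high, 4 low). Within chr7:10272991-13220657, 3 of 15 high and 3 of 4 low neurons had Tenm4. Within chr13:22084440-23253906, 8 of 18 high and 2 of 8 low neurons had it. Without neurons whose top V1R model ends at the stop codon or shares at least 50% of its 50-base words with another receptor, the fold was 1.80 between 77 high and 48 low neurons. Its log2 difference was 1.13, and 4.94 with sides at 300 and under 50 counts, 4.42 with sides set by the V1R sum and 5.22 with the low side under 20. Mbl2, a mannose-binding lectin used as a marker of some apical neurons, was 1.67-fold higher [0.955–3.24] in high neurons, at 32.9%, 31.96% and 21.2% with 20 counts. Its log2 difference was 0.74, and 2.13, 2.03 and 7.61 under the same 3 changes of the sides. Of the 12 neurons with a top V1R under 20, 0 had 20 counts of Mbl2 or of Tenm4. The values of 7.61 and 5.22 are thus ratios to a side with few counts, and their size is not read as a stronger difference.

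Of the 4 widely seen genes that the rule took, Psmc3 was also a list member and the other 2 besides Nqo1 were named after their values were seen. Psmc3, an ATPase subunit of the proteasome, was 1.52-fold higher in low neurons [1.03–2.22], with a median of 25 counts in high and 41.5 in low neurons, and 20 counts in 54.4%, 72.2% and 71.2% of high, middle and low neurons. Prpf4b, a kinase of the splicing machinery, was 1.74-fold higher in high neurons [1.16–2.66], with medians of 45 and 14.5 and shares of 75.9%, 73.2% and 45.5%. Ift20, which carries cargo to cilia, was 1.53-fold higher in high neurons [1.02–2.31], with medians of 43 and 4 and shares of 67.1%, 57.7% and 43.9%. For Prpf4b the middle group stood with the high side, for Psmc3 with the low side, and for Ift20 between them.

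**Figure D5:**
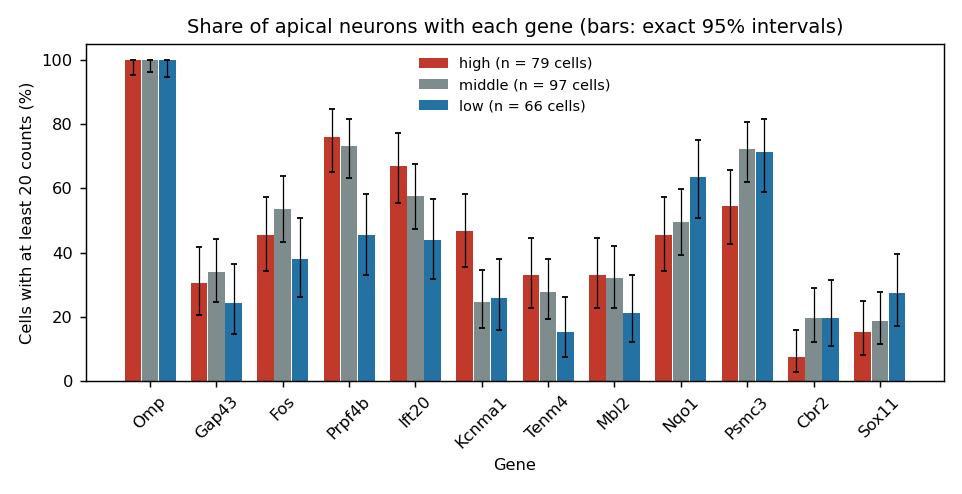
Share of neurons with at least 20 counts of each gene (bars, from 0) in 79 high, 97 middle and 66 low neurons, with exact 95% intervals. Omp is at 100% in each group because the cell choice required it, Prpf4b, Ift20 and Kcnma1 are higher in high neurons, and Nqo1 is highest in low neurons.

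Lists of genes by function gave few members past the rule, and each is to be read against the 12.1% of all tested genes. That share fell to 0 of the 832 most widely seen genes. Few members taken from a list of widely seen genes are therefore no trait of that list. Of 21 transduction genes tested, Kcnma1 was taken as higher in high neurons and the phospholipase Plcb2 and the adenylyl cyclase Adcy2 as higher in low neurons, and the median log2 difference was 0.07. Plcb2 was 1.58-fold [0.780–3.49] and Adcy2 1.69-fold [0.854–3.30] higher in low neurons, and the log2 difference of Plcb2 went from -0.66 to -1.25 with sides at 300 and under 50 counts and to -2.08 with the low side under 20. Of 29 genes of endoplasmic reticulum chaperones and the unfolded protein response, which handle membrane proteins such as receptors, only the stress pseudokinase Trib3 was taken (1.56-fold higher in high neurons [0.563–5.09]), and the median was 0.07. Hspa5, the main chaperone of the compartment, had medians of 84 and 74 counts and was 0.948-fold in high over low neurons [0.750–1.21]. Of 19 receptor transport genes only Reep1 was taken, as higher in low neurons, a direction that turned under each of the 3 changes of the sides (log2 0.61, 0.069 and 0.34). Rtp1, which carries olfactory receptors to the surface, had medians of 94 and 71 counts and was not.

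Regulators of receptor choice and chromatin showed 1 of 27 genes taken, the histone methyltransferase Ehmt2, at 1.67-fold higher in low neurons [0.746–3.99], with a list median of -0.22 against -0.01 over all tested genes. The demethylase Kdm1a and the cofactors Lhx2 and Ldb1, known from odorant receptor choice, were 0.858-fold [0.475–1.57], 0.847-fold [0.600–1.17] and 0.914-fold [0.407–2.04] in high over low neurons and were not taken. Among 11 transcription factors Id2, an inhibitor of helix-loop-helix factors, was 2.93-fold higher in low neurons [0.850–10.2]. Among 11 activity genes Ier2 was taken as higher in high and Dusp1 as higher in low neurons.

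No member was taken of 9 MHC class I genes (median log2 0.17), 10 heat shock genes (0.03), 14 synaptic genes (0.01), 13 mitochondrially encoded genes (0.12), 10 apical neuron markers (0.08) and 7 main olfactory genes (0.04). Of 85 ribosomal protein genes Rps4l was taken as higher in low neurons (log2 0.068 with sides set by the V1R sum), of 20 proteasome and ubiquitin genes Psmc3, and of 21 axon guidance and adhesion genes Tenm4. Of the 10 genes of the variable apical list, which were picked in earlier work on these same libraries and so are no independent evidence, Mbl2 was higher in high and Nqo1 and Gstm1 were higher in low neurons. Gstm1, a glutathione transferase, reached 20 counts in 2 high and 3 low neurons, and its direction turned under the 3 changes of the sides (log2 0.72, 1.2499 and 0.23).

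Among the lists of younger and neighbouring cells, the young neuron sums were near-equal on the sides. Some progenitor and sustentacular genes were higher in low neurons, in part with directions that turned under other sides. Of 4 progenitor genes tested, Sox11 and Insm1 were higher in low neurons (1.59-fold [0.808–3.17] and 1.69-fold [0.733–4.23]), with a list median of -0.45. Insm1 turned under all 3 changes of the sides, to log2 differences of 0.30, 0.24 and 5.82. The defining progenitor genes Neurog1, Neurod1 and Mki67 were at 0 in every high, middle and low neuron, and the summed list, led by Lhx2, had medians per 100000 counts of 40.3 in high, 45.3 in middle and 51.7 in low neurons (0.882 to 126.8, 3.14 to 126.3 and 2.25 to 143.7). Young neuron genes had medians of 548, 549 and 547, and 1 of 19 was taken. Of 3 sustentacular genes tested, Cbr2 (2.41-fold [1.13–5.74]) and Krt8 (2.07-fold [0.651–6.99]) were higher in low neurons. With sides set by the V1R sum both turned, to log2 differences of 0.026 and 0.15, and Krt8 was at 0.045 with the low side under 20. The whole sustentacular list, led by the keratin Krt18, had medians of 8.86 in high (0.626 to 103.4), 19.7 in middle (0 to 320.7) and 27.6 in low neurons (0 to 321.1). Krt18 alone made up 62.8%, 38.3% and 53.2% of the list's counts in these groups. Sox2, Cyp2a5, Cyp1a2, Ermn, Hes1, Muc2 and Ces1d missed the filter, and the cell choice held Sox2 under 10 counts. The sum is thus not read as a sign of sustentacular cells, and its part in the differences above was not tested. Of the 10 genes of this list Cyp1a2 was at 0 on both sides. Cbr2 also reached 20 counts in 11.4% of empty chambers, against 7.59% of high and 19.7% of low neurons.

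Immune genes had a median sum of 0 in each group, with single neurons up to 246.8 in high and 168.6 in low per 100000 counts, and 0 of 10 passed the filter. Endothelial and stromal genes stayed at or under 3.94 in high and 16.6 in low neurons, glial genes had medians of 0 and 0.689, and basal neuron markers had medians of 3.21 and 2.36. The basal list was led by the family C receptors Vmn2r3 in high and Vmn2r6 in low neurons, and a family C gene reached 20 counts in 8.86% of high, 11.3% of middle and 12.1% of low neurons.

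The largest folds belonged to genes seen in few neurons. All 30 had a median of 0 counts on both sides. Among the 15 largest in high neurons, Dnaaf2, an assembly factor of ciliary dynein, had at least 20 counts in 11 of 79 high and 0 of 66 low neurons, and 470 counts against 18 in sum, a 19.1-fold scaled difference whose interval starts at 2.04 and has no upper end. Polr3f, a subunit of RNA polymerase III, was at 11 high and 1 low neurons (12.7-fold), Senp1, a SUMO protease, at 12 and 1 (6.43-fold), and E2f6, a repressor of the E2F family, at 10 and 2 (4.34-fold [0.879–37.4]). The others of the 15 were Gm42991, Pycrl, Stambpl1, Gatb, 4933431E20Rik, Gm14399, Ribc2, Map3k2, 9330104G04Rik, Gfod2 and Ifnlr1, with 4 to 13 high neurons at 20 counts. In low neurons Rab2b, a small GTPase of the Golgi, was at 7 low and 1 high neurons (9.02-fold [1.82–75.4]), and Gtpbp1, a GTP-binding protein, at 10 and 1 (8.13-fold [2.20–86.6]). The others were Sftpd, Tmem168, Rsl24d1, Cyth3, Ppcdc, Pde4dip, Gm43737, Zfp51, Micalcl, Gpc1, Cstf2, Gm13642 and Fam208b, with 0 to 12 low neurons at 20 counts. These genes were ranked on the same neurons that give their folds, so their size is a description.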

How the data were processed

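Per the submitters' processing notes, reads were handled with STAR 2.5.4b, SAMtools 1.5 and featureCounts 1.6.1 (Subread). UMI-tools 0.5.3 and bcl2fastq are listed too, and the build is GRCm38 (mm10). The deposited values are whole-number counts of identifiers per gene and chamber for 28963 genes, not normalized. The table's 1 column that belongs to no chamber was not used. No doublet caller was run: chambers labelled as multiple cells or putative single cells were left out.

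From these counts, sums per side were scaled to the summed totals (Python 3.11.15, numpy 2.4.6, pandas 2.3.3, scipy 1.17.1, figures with matplotlib 3.10.9). Receptor genes are the Vmn1r, Vmn2r and Fpr families with their pseudogenes (461 genes), and other receptors means all of these but V1R and family C V2R genes. Shares have exact Clopper-Pearson 95% intervals, and ratios have exact conditional binomial ones, on counts divided by 39. Gene models and sequences came from GENCODE vM21, and sequence sharing means at least 1% of 50-base words in common.

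Named genes are the 15 largest folds each way past the size rule, list members past it, the genes of the cell choice, Gap43 and Fos, the 5 V1R genes leading most neurons of each side, and other receptors above the top V1R in at least 2 low neurons. The members and lists were chosen with earlier results of these data known. The alternatives were other scalings, filters, limits, chip positions and sets of neurons. The sides without certain gene models, the low limit of 20 counts and the divided counts were chosen after seeing the data. Genes of the cell type lists that are not named were compared but are not reported here.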

Additional observations from a re-analysis of the deposited data

How the results depend on the processing

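The share of tested genes past the size rule (6.19% higher in high and 5.91% higher in low neurons) moved by over 1.5 times in some alternatives. It was 10.4% and 9.62% with a minimum of 50 counts over both sides in place of the filter (1508 and 1392 genes, against 582 and 556), 2.01% and 2.14% with 10 counts in 25% of neurons (94 and 100 genes), 2.36% and 1.67% at a limit of 2-fold, and 9.54% and 9.29% without the rule on title numbers (898 and 874 genes). It was 14.4% and 14.9% in title numbers 1 to 10 alone (1322 and 1363 genes), 17.3% and 15.999% in 11 to 20 alone (1695 and 1569 genes), and 11.7% and 10.8% with sides at 300 and under 50 counts (26 against 27 neurons, 1050 and 966 genes). With the V1R sum in place of the top V1R (23 low neurons) 14.8% were higher in high neurons (1414 genes), and 70.1% of the genes taken were on that side, against 51.1%. With the low side under 20 counts (12 neurons) it was 20.3% (1899 genes) and 74.3%. The other alternatives stayed within 1.5 times, the farthest being 702 and 810 genes without neurons that had at least 10 counts of Gap43. Cross-talk correction of the V1R counts gave the same sides.

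The share of low neurons with another receptor above the top V1R was 40.7% for a low limit of 50 counts and 15.2% to 22.7% otherwise. Of 840 values of the 56 named genes tested, 791 stayed within the interval of the fold, 31 left it with the same sign, and 18 changed sign in genes the rule took. A further 12, counted within the interval, changed sign in Gnai2, Gnao1, Omp, Gap43 and Fos, which the rule did not take. Signs of genes taken changed with the V1R sum for Ifnlr1 (-0.062), Gm43737 (3.78), Micalcl (0.50), Fam208b (0.23), Cbr2 (0.026), Gstm1 (1.2499), Insm1 (0.24), Krt8 (0.15), Reep1 (0.069) and Rps4l (0.068), as log2 of high over low. They changed at 300 and 50 counts for Gstm1 (0.72), Insm1 (0.30) and Reep1 (0.61), and with the low side under 20 for Gm43737 (2.29), Gstm1 (0.23), Insm1 (5.82), Krt8 (0.045) and Reep1 (0.34). The cause was not tested. In the alternatives run Nqo1 lay between -1.04 and -0.64, Prpf4b between 0.44 and 1.05, Kcnma1 between 0.47 and 2.12, Tenm4 between 0.85 and 5.22, Mbl2 between 0.44 and 7.61 and Plcb2 between -2.08 and -0.52. No paired analysis was possible because the labels tie no chamber to a pool or mouse and each side is 1 unit. Counting error and 5-base identifiers limit the genes seen in few neurons.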
